A study of Danio rerio with 14 samples.

Results

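The subunits of AP-1 are encoded by genes whose own chromatin was profiled here by ATAC-seq, a measure of DNA accessibility, in cardiomyocytes of adult zebrafish. Peaks were taken from the deposited tables where the authors had assigned them to 1 of 10 genes: junba, junbb, jun, jund, fosab, fosb, fosl1a, fosl2, jdp2a and atf3. The shared table of 4 groups held 16 such peaks of all 10 genes among 16610 peaks. The A-Fos table held 11 such peaks of 9 genes among 6339 peaks, with no peak of jdp2a. All 16 and all 11 passed the filter of a mean value of at least 10, 1 of the 16 (the fosl1a upstream peak) only through the gata4:EGFP+ libraries.

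All 14 libraries came from ventricles of adults of both sexes aged 4 to 12 months, pooled from 6 hearts. The gata4:EGFP+ group (2 libraries, 5000 cells each) was sorted by fluorescence 4 days after cryoinjury, and the myl7:nucDsRed+ group (2 libraries, 5000 cells) was sorted from uninjured hearts. The junba OE and junbb OE groups (2 libraries each, 50000 cells) were uninjured hearts 7 days after overexpression was induced, isolated by density gradient. A-Fos(+) and A-Fos(-) cardiomyocytes (3 libraries each, 5000 cells, density gradient) were taken 4 days after cryoinjury, after injection of 4-hydroxytamoxifen at 0.5 mg/mL or of ethanol vehicle. The labels mark the A-Fos and overexpression lines with the prefix for cardiomyocyte and name no promoter or construct. Injury and the sorting reporter changed together between gata4:EGFP+ and myl7:nucDsRed+. Overexpression, isolation and cell number changed together between the OE groups and myl7:nucDsRed+. The drug 4-hydroxytamoxifen and A-Fos changed together between A-Fos(+) and A-Fos(-). Within each of these comparisons the factors cannot be told apart. The labels do not say that pools were separate experiments, so the p-values measure the spread between these libraries. That spread was not taken from each peak alone, but was estimated together with peaks of like mean.

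AP-1 is a dimer of basic leucine zipper proteins. Jun proteins pair with each other or with Fos proteins, whereas Fos proteins need a Jun partner to bind DNA stably. In mammals several subunit genes are immediate early genes: they are transcribed within minutes of a stimulus, in part because AP-1 and kinase-driven factors act on their promoters. A-Fos is a dominant-negative Fos that captures Jun proteins in a dimer that cannot bind DNA. The zebrafish carries duplicated copies of several of these genes, and junba and junbb are both annotated as JUNB in the gene name table used here.

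The values are the authors' normalized counts per peak, background-corrected, divided by size factors and rounded. They were compared within a table and, between genes, only per 100 bp of peak. The estimated nuclear reads in peaks per library ran from 468577 to 1451740 across the 4 groups of the shared table, and from 129391 to 811239 with and without A-Fos. Mitochondrial DNA took 72.0% to 94.2% of all values and was left out. The summed level of peaks at cardiomyocyte markers (16 peaks of 13 of the 16 listed genes, such as myl7 and ttn.2) was 0.158% to 0.178% of the nuclear signal in myl7:nucDsRed+, 0.0916% to 0.0989% in gata4:EGFP+, 0.0383% to 0.0875% in junba OE and 0.0451% to 0.0463% in junbb OE. The summed level of peaks at endothelial and endocardial markers (13 peaks of 11 of 17 genes) had the opposite order. It was 0.0137% to 0.0149% in myl7:nucDsRed+, 0.0332% to 0.0338% in gata4:EGFP+, 0.0552% to 0.0630% in junba OE and 0.0939% to 0.106% in junbb OE. Single marker peaks did not all follow these sums. No peak of the endothelial list was at 0 in any library. In pooled cells, fewer cells of a type and less open chromatin per cell cannot be told apart. The A-Fos table held a peak at 1 of the 16 cardiomyocyte genes.

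Among the 16 AP-1 peaks, those at junbb, jun, fosab and jdp2a carried the differences between the groups of the shared table and uninjured cardiomyocytes. In gata4:EGFP+ against myl7:nucDsRed+, 2 peaks were higher and 2 lower (limma, two-sided, Benjamini-Hochberg adjusted p under 0.05 over all 14776 tested peaks). Over all tested peaks 18.9% were called, 12.3% higher and 6.61% lower, so the 4 of 16 AP-1 peaks lie near the background. The 2 libraries of a group did not overlap with those of the other at 12 of 16 AP-1 peaks, against 61.2% of all peaks. In junba OE 1 peak was higher and 0 were lower, with a background of 26.1% called, 10.3% higher and 15.9% lower. In junbb OE 2 were higher and 0 lower, with a background of 28.8% called, 12.6% higher and 16.3% lower. These splits moved with the scaling. With libraries centred on start site peaks, 1 AP-1 peak was higher and 1 lower in junba OE, the latter at jun (-0.60, adjusted p = 0.0311), and 0 were higher and 1 lower in junbb OE, at atf3 (-0.72, adjusted p = 0.032). In gata4:EGFP+ the split was 4 higher and 1 lower with equal totals or quantile normalization, and 5 and 1 with centring. These counts and the medians that follow cover all 16 peaks. The fosl1a upstream peak, which passed the filter only through gata4:EGFP+, is thus part of them. It was among the 5. It stayed uncalled in 6 of 11 alternative fits, so the other splits in gata4:EGFP+ can hold it too. As deposited, the median log2 change over the 16 peaks was 0.23 in gata4:EGFP+, 0.18 in junba OE and 0.13 in junbb OE, beside -0.06, -0.07 and -0.02 over all tested peaks.

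Markers of other cells moved with the gata4:EGFP+ libraries, in both directions. From myl7:nucDsRed+ to gata4:EGFP+, 6 of 16 cardiomyocyte peaks were lower, at myh7l, myl7, ttn.1, ttn.2, actc1a and tnnc1a. The log2 changes of the 10 not called ran from -0.84 at tnnt2a to 0.79 at a tnni1b peak, with the other myl7 peak at -0.16. Higher were 3 of 12 tested endothelial and endocardial peaks, at nfatc1 (1.16), klf2a (1.42) and sox18 (1.52). The other 9 were not called, with kdrl at -0.21 and fli1a at 0.37. Of 4 tested epicardial and fibroblast peaks, 2 were higher, at col6a1 (2.70 ± 0.474, adjusted p = 0.000722) and col1a2 (1.20 ± 0.352, adjusted p = 0.0206), which encode collagens, and 1 was lower, at tgfb3 (-0.73 ± 0.219, adjusted p = 0.0239). The 1 tested leukocyte peak, at irf8, a gene of macrophage development, was higher (1.98 ± 0.404, adjusted p = 0.00212). The 4 leukocyte peaks (3 of 9 listed genes) summed to 0.00943% to 0.0105% of the nuclear signal in gata4:EGFP+, 0.00219% to 0.00352% in myl7:nucDsRed+, 0.00425% to 0.00588% in junba OE and 0.00370% to 0.00444% in junbb OE. The 6 epicardial and fibroblast peaks (6 of 12 genes) summed to 0.0306% to 0.0337% in gata4:EGFP+, 0.0246% to 0.0249% in myl7:nucDsRed+, 0.0226% to 0.0236% in junba OE and 0.0272% to 0.0295% in junbb OE. The 2 erythroid and thrombocyte peaks (2 of 7 genes) went down. They summed to 0.0150% to 0.0151% in myl7:nucDsRed+, 0.00804% to 0.00943% in gata4:EGFP+, 0.00252% to 0.00452% in junba OE and 0.00555% to 0.00569% in junbb OE. The 1 tested peak of this list, at sptb, was lower in gata4:EGFP+ than in myl7:nucDsRed+ (-0.97 ± 0.296, adjusted p = 0.0255). It was also lower in junba OE (-2.23) and junbb OE (-1.75). The part of these shifts in the AP-1 results was not tested.

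**Figure D1:**
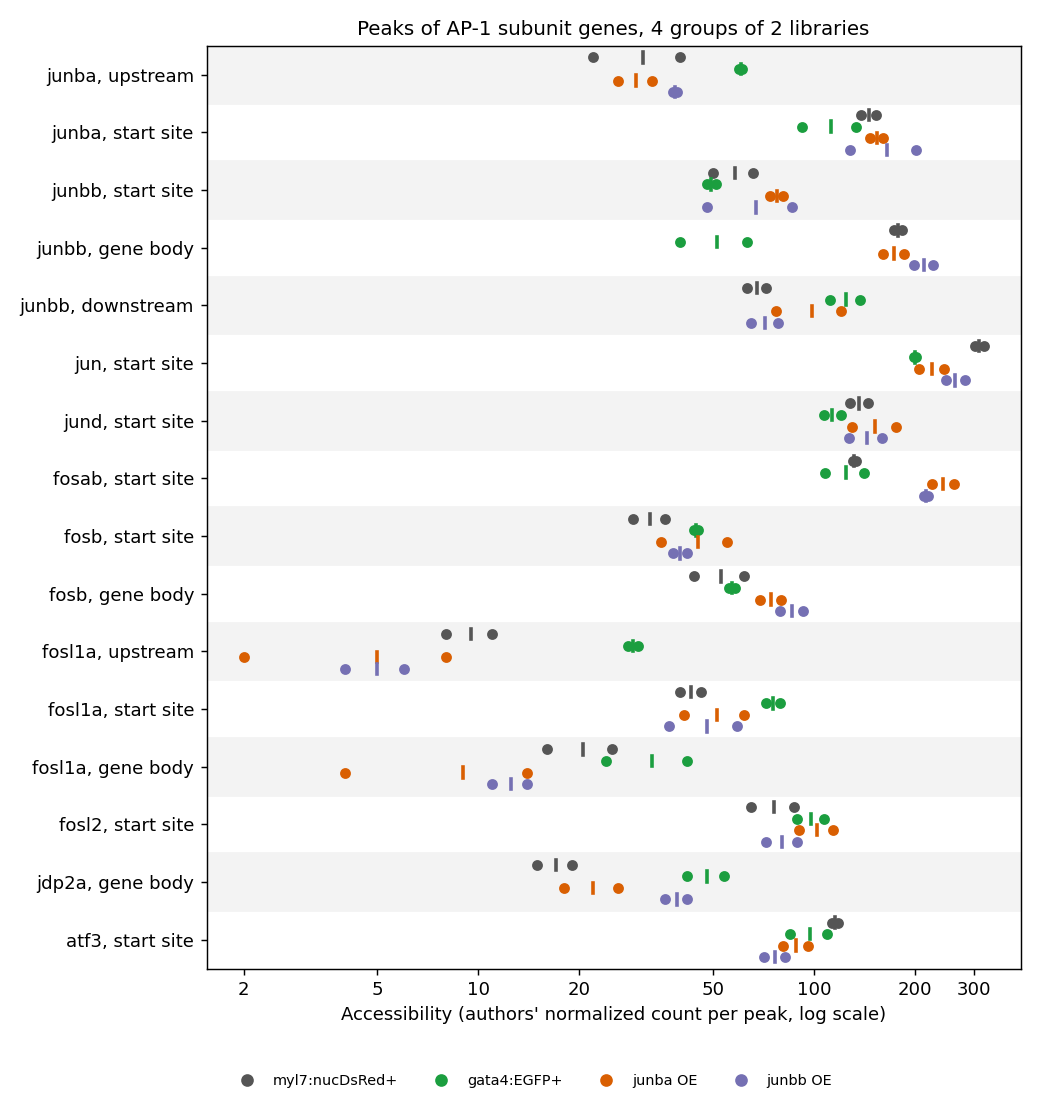
Accessibility of the 16 peaks of AP-1 subunit genes in the shared table. Each point is a library, placed by the authors' normalized count on a log axis, and each short bar is the mean of the 2 libraries of a group. The gata4:EGFP+ points stand left of all others at the junbb gene body and right of all others at the fosl1a upstream peak, and both OE groups stand right of the other groups at fosab.

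The genes that were overexpressed come first. JunB is a Jun protein that in mammals can act with or against c-Jun. The junba start site peak (ENSDARG00000074378, chromosome 1, 51734135 to 51734885 as deposited, on builds danRer11 and GRCz11) covers the start of transcription, with its centre 25 bp away. It read 161 and 147 in junba OE, 153 and 138 in myl7:nucDsRed+, 128 and 201 in junbb OE and 133 and 92 in gata4:EGFP+. The junba OE and myl7:nucDsRed+ libraries overlapped, and the log2 difference between these groups had a 95% interval of -0.42 to 0.58 (adjusted p = 0.844). A transgene that carried junba sequence would add reads here, and reads of a construct and of the endogenous gene cannot be told apart.

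A second junba peak lay 3096 bp upstream of the start site (chromosome 1, 51737524 to 51737738). It read 61 and 60 in gata4:EGFP+, 40 and 22 in myl7:nucDsRed+, 26 and 33 in junba OE and 38 and 39 in junbb OE. The gata4:EGFP+ libraries were the highest of all 8. The peak was 0.93 ± 0.338 higher on the log2 scale (estimate ± SE) than in junba OE (adjusted p = 0.0378). Against myl7:nucDsRed+ the estimate was 0.91 ± 0.338, which missed the threshold at an adjusted p of 0.0625. The call against junba OE was lost without gata4:EGFP+ replicate 1 (adjusted p = 0.175), gata4:EGFP+ replicate 2 (0.159) or junba OE replicate 1 (0.108). As a ratio to the start site peak of the same gene and library, the upstream peak was at 0.459 to 0.652 in gata4:EGFP+ and at 0.159 to 0.297 in the other 6 libraries, with no overlap.

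The gene junbb had 3 peaks, of which the gene body and downstream peaks changed in opposite directions. The peak in the gene body, 772 bp from the start site (ENSDARG00000104773, chromosome 3, 7654930 to 7655644), read 63 and 40 in gata4:EGFP+, 183 and 173 in myl7:nucDsRed+, 185 and 161 in junba OE and 199 and 227 in junbb OE. Both gata4:EGFP+ libraries were below all 6 uninjured libraries. The log2 change from myl7:nucDsRed+ was -1.73 ± 0.233, a fold of 0.302 (adjusted p = 8.85e-05), and lay at the 0.711 percentile of all tested peaks. It was also lower than in junba OE (-1.68 ± 0.233, adjusted p = 5.51e-05) and in junbb OE (-1.98 ± 0.233, adjusted p = 1.77e-05). These 3 comparisons share the gata4:EGFP+ libraries. The call against myl7:nucDsRed+ held without each library in turn, at adjusted p from 0.00142 to 0.0109.

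The junbb peak beyond the end of the gene, 1878 bp from the start site (chromosome 3, 7653992 to 7654370), had the opposite order. It read 112 and 137 in gata4:EGFP+, 72 and 63 in myl7:nucDsRed+, 77 and 120 in junba OE and 78 and 65 in junbb OE. The gata4:EGFP+ libraries were above those of myl7:nucDsRed+ and junbb OE cells and overlapped with junba OE. The peak was 0.83 ± 0.263 higher than in myl7:nucDsRed+ (adjusted p = 0.0301) and 0.76 ± 0.263 higher than in junbb OE (adjusted p = 0.0294). The call against myl7:nucDsRed+ was lost without any 1 of the 4 libraries: at an adjusted p of 0.109 and 0.264 without gata4:EGFP+ replicates 1 and 2, and of 0.0758 and 0.155 without myl7:nucDsRed+ replicates 1 and 2. The call against junbb OE was lost likewise, at 0.0821 and 0.221 without gata4:EGFP+ replicates 1 and 2 and at 0.0561 and 0.183 without junbb OE replicates 1 and 2.

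The junbb start site peak (chromosome 3, 7655938 to 7656241) read 51 and 48 in gata4:EGFP+, 50 and 66 in myl7:nucDsRed+, 74 and 81 in junba OE and 86 and 48 in junbb OE. The groups overlapped, apart from junba OE against gata4:EGFP+ and against myl7:nucDsRed+, and no comparison passed the test. The ratio of gene body to start site peak was 0.833 to 1.24 in gata4:EGFP+, 2.62 to 3.66 in myl7:nucDsRed+, 1.99 to 2.50 in junba OE and 2.31 to 4.73 in junbb OE. The ratio of the downstream to the start site peak was 2.20 to 2.85 in gata4:EGFP+ and 0.907 to 1.48 in the other libraries. The gata4:EGFP+ libraries thus stood apart in both ratios, each of which is formed within a library and does not depend on its scaling. In junbb OE, where reads from a construct could add to the gene body, the log2 difference from myl7:nucDsRed+ in that peak had a 95% interval of -0.23 to 0.73 (adjusted p = 0.457).

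**Figure D2:**
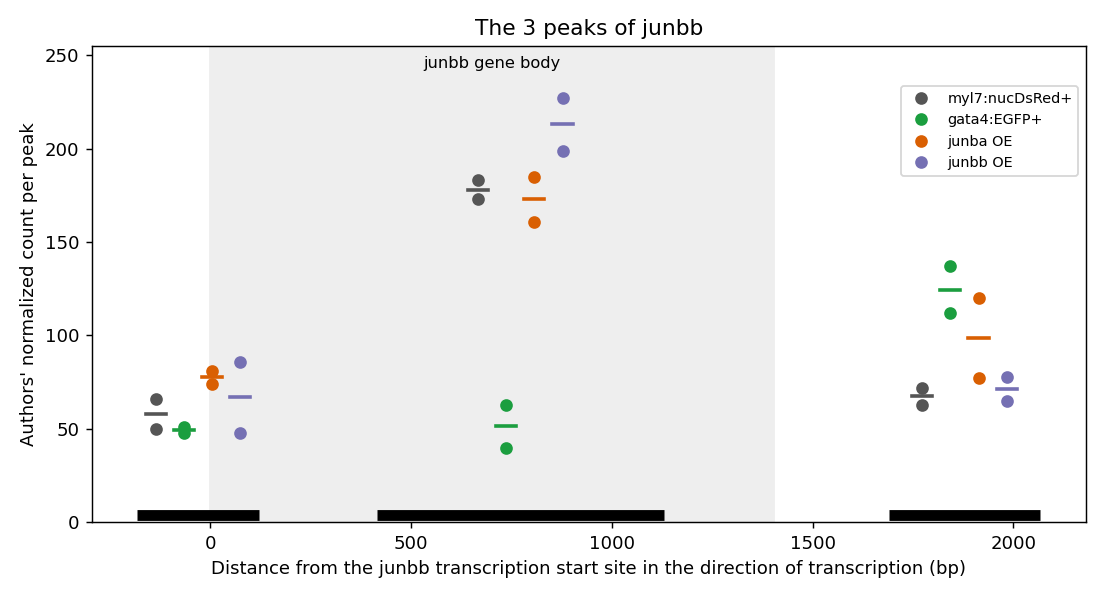
The 3 junbb peaks by distance from the transcription start site, in the direction of transcription. Black bars show the extent of each peak, the grey field the gene body, points the libraries and short lines the group means of the authors' normalized count. The gata4:EGFP+ libraries read 40 and 63 in the gene body, where the other libraries read 161 to 227, and 112 and 137 downstream, where myl7:nucDsRed+ libraries read 63 and 72.

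The gene jun encodes c-Jun, the Jun protein with the strongest activity in mammals. Its start site peak (ENSDARG00000043531, chromosome 20, 15552402 to 15553214) was the most accessible of the AP-1 peaks, with a mean of 30.8 per 100 bp over the 8 libraries. It read 320 and 302 in myl7:nucDsRed+, 247 and 281 in junbb OE, 205 and 244 in junba OE and 202 and 198 in gata4:EGFP+. The myl7:nucDsRed+ libraries were the highest and overlapped with no other group. The peak was lower in gata4:EGFP+ than in myl7:nucDsRed+ (-0.62 ± 0.206, a fold of 0.649, adjusted p = 0.0369). This call was lost without any 1 of the 4 libraries, at adjusted p of 0.185 and 0.204 without gata4:EGFP+ replicates 1 and 2 and of 0.169 and 0.125 without myl7:nucDsRed+ replicates 1 and 2. It was also lost after other scalings, at -0.37 (adjusted p = 0.323) with equal totals over tested peaks, -0.31 (0.305) after quantile normalization and -0.42 (0.16) with libraries centred on start site peaks. Of 12 alternative fits, 4 kept the call. In junba OE and junbb OE the 95% intervals were -0.89 to -0.04 (adjusted p = 0.0979) and -0.66 to 0.19 (adjusted p = 0.425).

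The gene jund encodes a Jun protein that in mammals is made constantly in many tissues. Its start site peak (chromosome 2, 56131043 to 56131612) read 120 and 107 in gata4:EGFP+, 128 and 145 in myl7:nucDsRed+, 175 and 130 in junba OE and 127 and 160 in junbb OE. The 3 uninjured groups overlapped, and no comparison of jund passed the test.

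Among the Fos genes, fosab, the zebrafish counterpart of FOS, had a wide start site peak of 920 bp (ENSDARG00000031683, chromosome 20, 46553846 to 46554766). It read 261 and 224 in junba OE, 213 and 219 in junbb OE, 131 and 133 in myl7:nucDsRed+ and 141 and 108 in gata4:EGFP+. All 4 OE libraries were above all 4 libraries of the other groups, and gata4:EGFP+ overlapped with myl7:nucDsRed+. The peak was 0.85 ± 0.212 higher in junba OE (a fold of 1.80, adjusted p = 0.00583) and 0.69 ± 0.212 higher in junbb OE (a fold of 1.61, adjusted p = 0.0175) than in myl7:nucDsRed+. Both comparisons share the myl7:nucDsRed+ libraries. In junba OE the call held without each library in turn, at adjusted p from 0.0125 to 0.0434. In junbb OE it was lost without myl7:nucDsRed+ replicate 1 (0.0845), myl7:nucDsRed+ replicate 2 (0.0805), junbb OE replicate 1 (0.0581) or junbb OE replicate 2 (0.0889). The order of the OE groups does not stand beyond their spread, since the 95% interval of their log2 difference was -0.28 to 0.60.

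The fosab peak was lower in gata4:EGFP+ than in junba OE (-0.94 ± 0.212, adjusted p = 0.00217) and than in junbb OE (-0.78 ± 0.212, adjusted p = 0.00741). Both calls were lost without gata4:EGFP+ replicate 2, at adjusted p of 0.0625 and 0.128. Markers of other cells moved in the same OE libraries. Of 12 tested endothelial and endocardial peaks, 9 were higher in junba OE and 11 in junbb OE than in myl7:nucDsRed+. Of 16 cardiomyocyte peaks, 12 and 13 were lower. In each OE group 1 was higher, at myl7, whose other peak was lower. The part of these shifts in the fosab result was not tested.

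The gene fosb had a peak at its start site and another in its gene body. The start site peak (chromosome 18, 36769600 to 36769801) read between 29 and 55 in all 8 libraries, and no comparison passed the test. The gene body peak, 933 bp from the start site (chromosome 18, 36770539 to 36770842), read 56 and 58 in gata4:EGFP+, 44 and 62 in myl7:nucDsRed+, 80 and 69 in junba OE and 79 and 93 in junbb OE. The OE libraries were the 4 highest, yet no comparison passed, and the closest was junbb OE against myl7:nucDsRed+ (95% interval 0.09 to 1.24, adjusted p = 0.0754).

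The gene fosl1a encodes the counterpart of Fra-1, a Fos protein that in mammals lacks the strong activation domain of c-Fos. It had 3 peaks, all with their highest mean in gata4:EGFP+. The upstream peak, 2135 bp from the start site (ENSDARG00000015355, chromosome 14, 30749733 to 30749908), had a mean of 12.1 over the 8 libraries. It read 28 and 30 in gata4:EGFP+, 8 and 11 in myl7:nucDsRed+, 2 and 8 in junba OE and 4 and 6 in junbb OE. Both gata4:EGFP+ libraries were above all others. In the junba OE libraries 3 reads are worth 3.57 and 6.10, so their values of 2 and 8 stand for few reads, and the size of the difference is known poorly. The mean of the 6 libraries outside gata4:EGFP+ was 6.50, under the filter, so this peak was tested only because it was high in gata4:EGFP+, and its values are given with no test.

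The fosl1a peak in the gene body, 2565 bp from the start site (chromosome 14, 30744942 to 30745300), read 42 and 24 in gata4:EGFP+, 25 and 16 in myl7:nucDsRed+, 14 and 4 in junba OE and 14 and 11 in junbb OE. The gata4:EGFP+ libraries overlapped with myl7:nucDsRed+ and not with the OE groups. In junba OE replicate 2, where 3 reads are worth 6.10, the value of 4 stands for about 2 reads. The size of the difference from junba OE is thus known poorly. The peak was 1.50 ± 0.436 higher in gata4:EGFP+ than in junba OE (adjusted p = 0.0119), a call lost without gata4:EGFP+ replicate 1 (0.184) or junba OE replicate 2 (0.119). The start site peak (chromosome 14, 30747397 to 30747882) read 72 and 79 in gata4:EGFP+, 46 and 40 in myl7:nucDsRed+, 62 and 41 in junba OE and 59 and 37 in junbb OE. Here gata4:EGFP+ was highest without overlap, and no comparison passed (against myl7:nucDsRed+, 95% interval 0.10 to 1.39, adjusted p = 0.0979).

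The gene fosl2, the counterpart of Fra-2, had a start site peak (chromosome 17, 41302322 to 41302787) that read between 65 and 114 in all 8 libraries. Its group means ran from 76.0 ± 15.6 in myl7:nucDsRed+ to 102.0 ± 17.0 in junba OE (SD, n = 2), and no comparison passed the test.

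The last genes encode bZIP proteins outside the Jun and Fos families. JDP2 pairs with Jun proteins and in mammals represses AP-1 targets. The jdp2a peak lies in the gene body, 565 bp from the start site (ENSDARG00000040137, chromosome 17, 50219425 to 50219900). It read 54 and 42 in gata4:EGFP+, 42 and 36 in junbb OE, 26 and 18 in junba OE and 19 and 15 in myl7:nucDsRed+. The gata4:EGFP+ and junbb OE libraries met at 42 and were above the other groups, which overlapped with each other. The peak was 1.27 ± 0.352 higher in gata4:EGFP+ than in myl7:nucDsRed+ (a fold of 2.40, adjusted p = 0.0155), 1.00 ± 0.352 higher in junbb OE than in myl7:nucDsRed+ (adjusted p = 0.0356) and 0.98 ± 0.352 higher in gata4:EGFP+ than in junba OE (adjusted p = 0.0365).

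With 1 library left out, the jdp2a estimate was 1.101 to 1.429 in gata4:EGFP+ and 0.8711 to 1.134 in junbb OE, both against myl7:nucDsRed+. In gata4:EGFP+ against junba OE it was 0.7644 to 1.195. Each jdp2a call was lost in some of these fits. They leave a group with 1 library, so a lost call does not show that the result rested on the library left out. In gata4:EGFP+ against myl7:nucDsRed+ the call was lost without gata4:EGFP+ replicate 1, gata4:EGFP+ replicate 2 or myl7:nucDsRed+ replicate 2. In junbb OE it was lost without any 1 of the 4 libraries compared. In gata4:EGFP+ against junba OE it was lost without gata4:EGFP+ replicate 1, gata4:EGFP+ replicate 2 or junba OE replicate 2. Of 12 alternative fits, 7 kept the call of gata4:EGFP+ against junba OE, so settings other than leaving out a library also lost it. The 95% interval of junba OE minus junbb OE was -1.45 to 0.01, with the smallest adjusted p of any AP-1 peak between the OE groups, 0.495.

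The gene atf3 encodes a stress-induced bZIP protein that pairs with Jun proteins and in mammals often represses. Its start site peak (chromosome 20, 37794368 to 37794727) read 109 and 85 in gata4:EGFP+, 113 and 118 in myl7:nucDsRed+, 96 and 81 in junba OE and 82 and 71 in junbb OE. The myl7:nucDsRed+ libraries were highest without overlap, and no comparison passed the test (junbb OE against myl7:nucDsRed+, 95% interval -1.07 to -0.06, adjusted p = 0.0858).

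**Figure D3:**
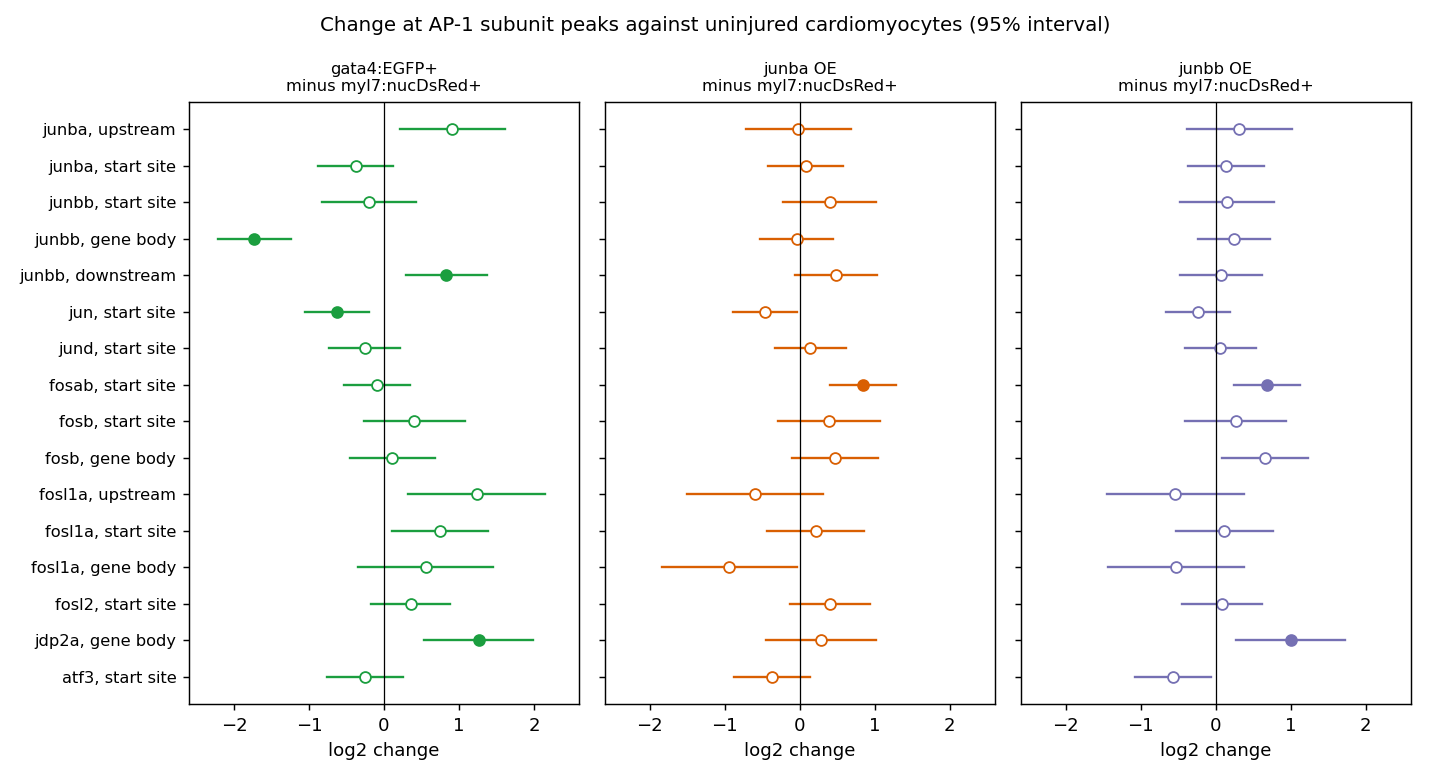
Log2 change of the 16 AP-1 peaks against uninjured myl7:nucDsRed+ cardiomyocytes on the log2(value + 5) scale. Points are limma estimates, lines are 95% intervals and filled points passed an adjusted p of 0.05. Filled points are the junbb gene body and downstream, jun and jdp2a peaks in gata4:EGFP+, fosab in junba OE, and fosab and jdp2a in junbb OE.

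Between the overexpressed paralogs no AP-1 peak differed. In junba OE against junbb OE, 0 of 16 AP-1 peaks were called by limma and 0 had an unadjusted p under 0.05, with a background of 0.088% called and 1494 of 14776 peaks under that unadjusted level. The log2 estimates of the AP-1 peaks ran from -0.72 at jdp2a to 0.41 at the junbb downstream peak. The median half-width of a 95% interval over all tested peaks was 0.79. Intervals of the AP-1 peaks were narrower at some, such as -0.66 to 0.19 at jun, and wider at others, such as -1.32 to 0.49 at the fosl1a gene body. Changes inside these intervals remain possible. The intervals are not adjusted for the number of tests, so a call needed a change larger than the half-width of the peak's own interval. This does not show that both paralogs act alike at these genes.

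The gata4:EGFP+ cells differed from both OE groups at the junbb gene body and fosab peaks. Apart from the fosl1a upstream peak, 3 of the other 15 AP-1 peaks were higher than in junba OE (the junba upstream, fosl1a gene body and jdp2a peaks) and 2 lower (junbb gene body and fosab), with a background of 33% called, 21.2% higher and 11.8% lower. Against junbb OE, 1 was higher (junbb downstream) and 2 lower (junbb gene body and fosab), with a background of 35% called, 21.2% higher and 13.8% lower. These comparisons share the gata4:EGFP+ libraries. Injury, overexpression, isolation (sorting or gradient) and cell number (5000 or 50000) changed together in them and cannot be told apart. In the same comparisons, 7 of 12 endothelial and endocardial peaks were lower and 1 higher against junba OE, and 10 lower and 1 higher against junbb OE. Of 16 cardiomyocyte peaks, 6 were higher and 1 lower against junba OE, and 12 higher and 1 lower against junbb OE. The lower one was at myl7 in both. The part of these shifts was not tested. Start site here means a peak centre within 500 bp. From myl7:nucDsRed+ to gata4:EGFP+, 1 of 9 start site peaks and 3 of 7 other peaks of AP-1 genes were called, where 10.3% of all start site peaks and 24.2% of all other peaks were called. The AP-1 counts follow the order of the background, and the number of peaks is small.

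Over all peaks the balance of calls depended on scaling. The share of higher calls in gata4:EGFP+ against myl7:nucDsRed+ was 65% as deposited, 87.8% with equal totals over tested peaks, 56.2% after quantile normalization and 84.2% with libraries centred on start site peaks. It was 39.3% in junba OE and 43.6% in junbb OE against myl7:nucDsRed+, and 28.3% and 32.8% after centring. With equal totals it was 48.7% and 62.7%, and after quantile normalization 48.7% and 48.6%. Against junba OE it was 64.2% in gata4:EGFP+, and 74.7%, 49.3% and 86.5% with equal totals, quantile normalization and centring. Against junbb OE it was 60.6%, and 58.9%, 49.6% and 84.3% with these methods. Between the OE groups it was 61.5%, of 13 calls, also after quantile normalization and centring, and 40% with equal totals.

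The A-Fos comparison covers 9 of the 10 genes in injured hearts with and without induction of A-Fos. The level and activity of A-Fos itself were not measured in the values used here. Among the A-Fos libraries, 0 of 11 AP-1 peaks were called by limma, and 0 had an unadjusted p under 0.05. The background was 0%, since 0 of 6012 tested peaks were called, with 200 at an unadjusted p under 0.05. The start site peak of jun (chromosome 20, 15552436 to 15552932) read 135, 86 and 121 in A-Fos(+) and 107, 84 and 107 in A-Fos(-). The fosab start site peak (chromosome 20, 46554179 to 46554759) read 108, 55 and 107 in A-Fos(+) and 87, 87 and 66 in A-Fos(-). Both genes overlapped between the groups, with 95% intervals of the log2 difference of -0.36 to 0.70 and -0.46 to 0.69.

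The junba start site peak (chromosome 1, 51734376 to 51734765) read 95, 36 and 63 with A-Fos and 58, 67 and 77 without, and that of junbb (chromosome 3, 7656001 to 7656225) read 45, 40 and 29 with and 42, 31 and 37 without. The junbb downstream peak read 65, 53 and 84 with and 60, 55 and 51 without A-Fos. The SD was larger in A-Fos(+) at each of these 3 peaks. It was smaller in A-Fos(+) at the start sites of jund (5.86 against 10.3) and fosl2 (10.1 against 11.9). A-Fos(+) held the shallowest library of the series, replicate 3, where 1 read was worth 2.885. At the junba start site this library read 63, between 95 and 36. The part of depth in the spread was not tested. The start site peak of fosb (chromosome 18, 36769600 to 36769736) was the 1 of 11 AP-1 peaks whose groups did not overlap, at 36, 25 and 40 with and 23, 21 and 20 without A-Fos, where 6.92% of all tested peaks did not overlap. Its 95% interval was -0.14 to 1.21 (adjusted p = 1).

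The fosl1a gene body peak, with the same coordinates in both tables, read 83, 33 and 23 in A-Fos(+) and 43, 28 and 23 in A-Fos(-). The remaining peaks overlapped too: jund read 69, 67 and 58 with and 49, 63 and 43 without A-Fos, and fosl2 read 73, 61 and 81 with and 59, 53 and 76 without. The fosb gene body peak read 47, 29 and 52 with and 42, 35 and 36 without, and atf3 read 70, 45 and 49 with and 63, 61 and 43 without. The median log2 change over the 11 peaks was 0.17, beside -0.00393 over all tested peaks. The median half-width of a 95% interval over all tested peaks was 0.722. Intervals of the AP-1 peaks were narrower at some, such as -0.36 to 0.70 at jun, and wider at others, such as -0.44 to 1.16 at the fosl1a gene body. Changes inside these intervals remain possible. These intervals too are not adjusted for the number of tests, so a call needed a change larger than the half-width of the peak's own interval. The lack of calls does not show that A-Fos left these genes as they were.

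**Figure D4:**
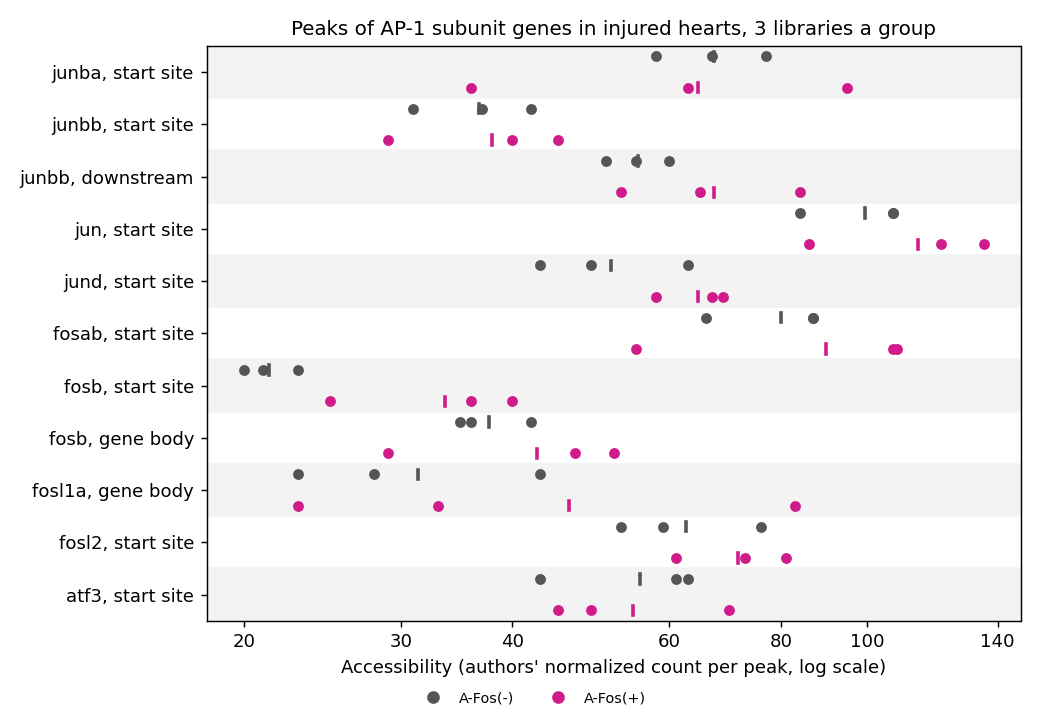
Accessibility of the 11 AP-1 peaks in the A-Fos table. Each point is a library of injured hearts with (3) or without (3) A-Fos, placed by the authors' normalized count on a log axis, and each short bar is the group mean. At fosb the start site points of the groups do not overlap, at 25 to 40 against 20 to 23, and at the other 10 peaks they do.

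The sources used here do not say whether the peaks of the 2 tables were called separately. Some peaks, such as that of the fosl1a gene body, had the same coordinates in both. The presence of a peak is therefore only a description of each set. Of the 16 AP-1 peaks of the shared table, 11 (68.8%) overlapped a peak of the A-Fos table by at least 1 base, and 37.7% of all 16610 peaks did. These sets are not matched. All 16 AP-1 peaks had a gene and passed the filter, and 14 were above the median peak mean. The 16610 include peaks with no gene and peaks under the filter. The same limit applies to the heights and widths below. The 5 without an overlap were the fosl1a start site and upstream peaks, the jdp2a peak, the junba upstream peak and the junbb gene body peak. The last of these was the most accessible of the 5 per 100 bp, and was low in gata4:EGFP+ libraries, which were also taken 4 days after cryoinjury. The fosl1a start site and upstream, jdp2a and junba upstream peaks went the other way, with their highest mean in gata4:EGFP+. Isolation also differed between gata4:EGFP+ and the A-Fos libraries, and why a peak was absent was not tested. Per 100 bp, 13 of 16 and 10 of 11 AP-1 peaks had a mean above that of the median peak of their table, and their median width was 421.5 bp and 358 bp against 291 bp and 257 bp for all peaks.

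Levels per 100 bp of peak also put the AP-1 peaks of the shared table in order. The lowest were the fosl1a gene body, jdp2a, fosl1a upstream and fosl1a start site peaks at 5.24, 6.63, 6.93 and 11.2. The other 12 lay between 18.6 at the junba upstream peak and 30.8 at jun. The range over libraries differed as well. The highest library was 15.0 times the lowest at the fosl1a upstream peak and 10.5 times at the fosl1a gene body. The lowest libraries of both these peaks rest on few reads. The range was 5.68 times at the junbb gene body and 3.60 times at jdp2a, and 1.62 to 2.77 times at the other 12.

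Peaks within 25000 bp of these genes that the authors assigned to another gene or to none were counted too: 23 around the genes in the shared table, of which 2 were too low to test, and 13 in that of A-Fos, all tested. Against myl7:nucDsRed+, 2 were higher and 1 lower in gata4:EGFP+, 1 higher and 2 lower in junba OE, and 2 higher and 3 lower in junbb OE. These 3, 3 and 5 of 21 tested peaks stand beside 18.9%, 26.1% and 28.8% of all peaks called, and are near or below that share. Of the 2 higher in gata4:EGFP+, 1 near fosl1a passed the filter only through those libraries. With A-Fos 0 of 13 were called. The peak 20758 bp upstream of the jun start site (chromosome 20, 15531667 to 15532132, no gene assigned) read 52 to 63 in junba OE and 86 to 93 in junbb OE, against 7 to 15 in myl7:nucDsRed+ and 9 in both gata4:EGFP+ libraries. It was 2.01 ± 0.36 higher in junba OE (adjusted p = 0.000529) and 2.61 ± 0.36 higher in junbb OE (adjusted p = 3.57e-05) than in myl7:nucDsRed+. The jun start site peak itself was highest in myl7:nucDsRed+.

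Around atf3, the peak across the 3′ end of the gene (chromosome 20, 37800105 to 37800799) read 13 to 18 in junba OE and 7 to 22 in junbb OE, against 49 to 76 in myl7:nucDsRed+ and 75 to 94 in gata4:EGFP+. It was lower in junba OE (-1.70 ± 0.387, adjusted p = 0.00318) and junbb OE (-1.88 ± 0.387, adjusted p = 0.00103) than in myl7:nucDsRed+. A peak 18258 bp upstream of atf3 (chromosome 20, 37776173 to 37776576) was lower in both as well, by -1.61 ± 0.386 (adjusted p = 0.00453) and -1.09 ± 0.386 (adjusted p = 0.0378), and another 9756 bp upstream was lower in junbb OE (-1.06 ± 0.348, adjusted p = 0.0245). In gata4:EGFP+ the peak 16928 bp upstream of fosb (chromosome 18, 36752407 to 36753252) read 120 to 128 against 39 to 59 in myl7:nucDsRed+ (1.28 ± 0.268, adjusted p = 0.00249). It was also higher in junbb OE (0.88 ± 0.268, adjusted p = 0.0167). A peak near fosl1a, assigned to ENSDARG00000104133 (chromosome 14, 30737985 to 30738279), read 48 to 51 in gata4:EGFP+ against 10 to 13 in myl7:nucDsRed+. This peak passed the filter only through gata4:EGFP+, so its values are given with no test. A peak near fosab, assigned to tmed10 (chromosome 20, 46541418 to 46541927), read 18 to 34 against 60 to 72 in the same groups (-1.24 ± 0.327, adjusted p = 0.0115). None of these assignments shows which gene a peak acts on. Marker shifts in the OE libraries, given above, apply here too, and their part was not tested.

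Other basic leucine zipper genes that can pair with or resemble AP-1 were followed as a list of 40 genes, of which 22 had a tested peak, 26 in all. In gata4:EGFP+ against myl7:nucDsRed+, 3 were higher and 1 lower, 4 of 26 beside 18.9% of all peaks called, which is near the background. The higher ones lay at bach1b (1.52 ± 0.301, adjusted p = 0.00171), a CNC-type repressor that pairs with small Maf proteins, at creb5a (1.47 ± 0.327, adjusted p = 0.0037), of the CREB and ATF group, and at maff (1.26 ± 0.387, adjusted p = 0.0265), a small Maf protein. The lower one lay at nfe2l1b (-1.23 ± 0.246, adjusted p = 0.00188), a CNC-type activator. In junba OE 0 were called, and in junbb OE 1 was higher, at mafb (0.72 ± 0.268, adjusted p = 0.0473), where 26.1% and 28.8% of all peaks were called. With A-Fos 0 of 17 were called. The median log2 change of the list in gata4:EGFP+ was 0.00702, beside -0.06 over all peaks.

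Kinases and phosphatases upstream of AP-1 were followed as a list of 32 genes, of which 26 had 1 tested peak each. In gata4:EGFP+ against myl7:nucDsRed+, 0 were higher and 4 lower, all at start sites. Over all peaks 12.3% were higher and 6.61% lower, and 10.3% of start site peaks were called in either direction. The 4 were dusp1 (-1.46 ± 0.229, adjusted p = 0.000287) and dusp4 (-1.10 ± 0.291, adjusted p = 0.0117), which encode phosphatases of MAP kinases, and mapk8b (-1.26 ± 0.309, adjusted p = 0.00712) and mapk9 (-0.95 ± 0.314, adjusted p = 0.0367), which encode Jun N-terminal kinases. The median over the list was -0.25, beside -0.06 over all peaks.

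In the OE groups the calls lay at other members of the list. In junba OE the higher peaks included that of map3k7 (1.20 ± 0.400, adjusted p = 0.0294), a kinase upstream of JNK and p38. The 1 lower peak lay at mapk10 (-2.83 ± 0.417, adjusted p = 1e-04), a Jun N-terminal kinase that in mammals is found mainly in neurons and heart. In junbb OE the higher peaks included that of map3k1 (1.92 ± 0.433, adjusted p = 0.00214), and mapk10 (-1.50 ± 0.417, adjusted p = 0.00965) and mapk14b (-1.42 ± 0.365, adjusted p = 0.00556), a p38 kinase, were lower. Over all peaks 26.1% were called in junba OE and 28.8% in junbb OE. With A-Fos 0 of 11 peaks of the list were called.

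Peaks with a pattern most like those of 4 AP-1 start sites over the 8 libraries were sought among all 14776 tested peaks, as a description. The junba peak was most like peaks of dag1 (Pearson r 0.986), lmf2a (0.959) and snx13 (0.955). The junbb start site peak was most like those of si:dkey-151m15.5 (0.934), mdm1 (0.923) and rab42a (0.919). The jun peak was most like those of si:ch211-195d17.2 (0.964), mfsd6a (0.961) and si:dkey-16p6.1 (0.961), and the fosab peak most like those of pgm2l1 (0.985), cry1aa (0.981) and pias1a (0.98). These are the highest values of a search over many peaks with 8 points each, and peaks of a library share its depth.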

How the data were processed

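The deposited values are a score. The authors corrected the reads of each peak for background, scaled them by size factors and rounded the result, separately for each of the 2 tables. Per the submitters' processing notes, the builds were danRer11 and GRCz11, with STAR 2.6.1d, Trimmomatic 0.36, Picard 2.18.16, deepTools 2.5.7, MACS2, DESeq and DESeq2 1.18.1. Peak thresholds, the shift of reads to the cut site and the background correction itself are not given in the sources used here, nor whether coordinates count from 0 or 1. Per the file headers, the authors give each peak a gene, the distance of its centre to the start site and the fraction of it inside the gene body.

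Rounding removed the raw counts, so no count model was fitted. Peaks with a mean of at least 10, without the mitochondrial peak (14776 and 6012), were transformed as log2(value + 5) and tested by limma 3.58.1 (R 4.3.3), two-sided, with robust and trended moderation and Benjamini-Hochberg adjustment over all tested peaks. A fold on this scale understates changes of low peaks. All 4 groups of the shared table (8 libraries) entered 1 fit, and the 6 A-Fos libraries another. The tests were tried on simulated data. The value of 1 read was estimated from the spacing of values (largest error in simulated data 0.103%). The simulated data had no background correction, so this error does not carry over to the deposited values. In the real libraries the estimate explained a share of 0.608 to 0.996 of the variation in spacing, lowest in gata4:EGFP+ replicate 1. The read numbers are thus approximate. Python 3.11.15, pandas 2.3.3, NumPy 2.4.6 and Matplotlib 3.10.9 were used for tables and plots.

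All peaks of the 10 genes are named, and like-patterned peaks are the 3 with the highest correlation. The genes and lists were chosen with earlier results of these data known. Alternatives were another pseudocount, other filters and scalings, a replicate block, fits of 2 groups and leaving out each library. No sequences were used here. 1 listed gene is not reported here.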

Additional observations from a re-analysis of the deposited data

How the results depend on the processing

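Of the 15 calls at AP-1 peaks other than the fosl1a upstream peak, 4 held under every alternative that could be run: the junbb gene body in its 3 gata4:EGFP+ comparisons, and fosab in junba OE. Leaving out the fosl1a upstream peak, a choice made after seeing the data, moved the AP-1 calls from 6 to 5 and from 4 to 3 in gata4:EGFP+ against junba OE and junbb OE. Without either gata4:EGFP+ library its mean fell under 10, and it could then be fitted only with no filter, also a later choice. Of 1279 repeats of single AP-1 results, 1127 kept direction and side of the threshold, 42 lost a call, 28 gained one, and 82 changed sign with no call in either fit. The median log2 change of all peaks moved by over 0.1 with some scalings. With equal totals it went from -0.06 to 0.15 in gata4:EGFP+, from -0.07 to 0.04 in junba OE and from -0.02 to 0.24 in junbb OE against myl7:nucDsRed+, from -0.04 to -0.18 between the OE groups, from 0.04 to 0.15 in gata4:EGFP+ against junba OE, and from -0.00393 to -0.24 with A-Fos. With centring it went to 0.14, -0.21 and -0.17 against myl7:nucDsRed+, and to 0.38 and 0.36 in gata4:EGFP+ against junba OE and junbb OE. After quantile normalization it went to 0.04 in junba OE against myl7:nucDsRed+ and to -0.09 in gata4:EGFP+ against junba OE. No AP-1 call changed sign under these scalings.

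With a pseudocount of 1, 1738 peaks were called in gata4:EGFP+ against myl7:nucDsRed+ instead of 2795, and in the fit of those 2 groups alone 4707, with 7 AP-1 peaks instead of 4. The 7 include the fosl1a upstream peak, which passed the filter only through gata4:EGFP+. Counts of AP-1 calls from here on also take it in wherever it passed the filter. With a mean of at least 30, where fewer peaks are tested, the counts were 840 there, 1977 in junba OE and 2050 in junbb OE against myl7:nucDsRed+ (3857 and 4259 before), 7 between the OE groups (13 before), and 2006 and 2094 in gata4:EGFP+ against junba OE and junbb OE (4880 and 5172 before), with 3 AP-1 peaks against junba OE instead of 6. With centring, AP-1 calls were 2 in junba OE (1 before), 1 in junbb OE (2 before, both higher, against 1 lower) and 7 in gata4:EGFP+ against junbb OE (4 before), and the cause was not tested. There, the fosab calls of junbb OE against myl7:nucDsRed+ and of gata4:EGFP+ against junbb OE were lost (adjusted p = 0.0601 and 0.12), as was that of jdp2a in junbb OE (0.0745).

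Leaving out 1 library gave 1 to 3 AP-1 and 457 to 1396 calls in gata4:EGFP+ against myl7:nucDsRed+, 1 to 3 and 1971 to 4391 in junba OE, 0 to 0 and 2066 to 2872 in junbb OE, 0 to 0 and 1 to 327 between the OE groups, 2 to 5 and 1683 to 5254 in gata4:EGFP+ against junba OE, and 1 to 4 and 2007 to 3674 against junbb OE. It gave 0 with A-Fos. The 327 came without junba OE replicate 1. A group left with 1 library is assumed to vary like the others.

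Replicate numbers were not taken as pairs. Deviations from the group means correlated at 0.28, 0.256 and 0.0823 for same-numbered A-Fos libraries, each of which correlated best with its own number, and within 0.04 of 0 in the shared table. The replicate block moved no count of calls by over 1.5 times and added the fosl1a gene body peak in gata4:EGFP+ against junbb OE (adjusted p = 0.0414) among the other 15 AP-1 peaks. The fosl1a upstream values of the OE libraries and the fosl1a gene body value of junba OE replicate 2 rest on few reads. The parts of depth and of the number of libraries in the width of the intervals were not separated.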
